A study of Mus musculus with 6 samples.

Results

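Transcripts of 39 genes that fold, modify and export collagen, or that answer stress in the endoplasmic reticulum (ER), were measured in the midline cartilage of the embryonic mouse nose. The genes were taken by name and grouped by step: 10 collagen modification genes, 13 ER chaperone and folding genes, 6 COPII export genes, 3 translocon genes and 7 genes of the unfolded protein response. All 39 were found among the 38924 genes of the count files. RNA came from anterior nasal septum cartilage captured by laser at E14.5, from 3 embryos labelled WT and 3 labelled Apert, with 1 library per animal. All 6 were C57BL/6. The Apert embryos had the genotype Fgfr2+/S252W; EIIA-Cre, and the labels give no transgene for the WT embryos. The Apert embryos thus carry 1 copy of an S252W mutation of the fibroblast growth factor receptor gene Fgfr2, a change that causes Apert syndrome, a craniosynostosis. EIIA-Cre is active in the early embryo, so the mutation is not confined to cartilage, and a difference in cartilage can come from signals of other tissues. The comparison asks which of these transcripts differ between the genotypes. In bulk RNA of this kind, fewer cells of a type and less RNA per cell cannot be told apart.

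Chondrocytes secrete large amounts of type II collagen. Procollagen chains enter the ER through the Sec61 channel, are hydroxylated on proline and lysine, and wind into a triple helix that the chaperone HSP47 (Serpinh1) stabilises. The helix is too long for an ordinary transport vesicle, and TANGO1 (Mia3) helps to load it at COPII-coated exit sites. When unfolded protein builds up, the sensors IRE1 (Ern1), PERK (Eif2ak3) and ATF6 start the unfolded protein response, which raises ER chaperones through the factors XBP1, ATF4 and cleaved ATF6. The related factor CREB3L2, also called BBF2H7, activates Sec23a in cartilage and is needed there for matrix secretion.

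Chaperone genes of this response share a promoter motif, the ER stress response element (ERSE), whose letters are CCAAT and, after 9 free bases, CCACG. It was searched on both strands in RefSeq promoter windows (GRCm38.p6, the build of the files) that run from 250 bases before to 50 bases after each annotated start. Windows were found for 33 of the 39 members. ERSE was present in 6 of them, all chaperone genes: Hspa5, Hsp90b1, Pdia6, Calr, Canx and Dnajc3. The windows of the chaperone genes Pdia3, Pdia4, Dnajb9, Dnajb11, Herpud1 and Sdf2l1 held no exact match. The share over all genes of the RefSeq table was 0.137% (37 of 27025 genes). Since the motif is known from chaperone genes of this response, setting the members beside that share is a description and not a test. The matches are shown because they are the sequence feature that the 6 chaperone genes with an ERSE share. Each is printed in the motif's own direction with 5 bases on either side, and capitals mark the fixed letters.
Hspa5, chr2:34772025-34772043: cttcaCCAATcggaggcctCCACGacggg
Hsp90b1, chr10:86705638-86705656: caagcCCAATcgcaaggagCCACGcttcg
Hsp90b1, chr10:86705533-86705551: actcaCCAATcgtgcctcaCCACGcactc
Pdia6, chr12:17266491-17266509: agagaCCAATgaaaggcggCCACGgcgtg
Calr, chr8:84847075-84847093: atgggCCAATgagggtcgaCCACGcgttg
Canx, chr11:50325800-50325818: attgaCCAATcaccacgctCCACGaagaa
Dnajc3, chr14:118937827-118937845: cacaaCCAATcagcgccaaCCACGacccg
The coordinates cover the 19 bases of the motif without the flanks.

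A second form, ERSE-II, has ATTGG, 1 free base and CCACG. It was found in Herpud1 and Dnajb11, against 0.0444% of all genes in the table. The UPRE, an XBP1 and ATF6 motif with the letters TGACGTGG, was found in Sec23a and Sec24d, which encode the inner COPII coat, against 0.714% of all genes. Neither of these motifs overlapped an ERSE in a member's window. The amino acid response element bound by ATF4, searched as TGATG, 1 free base, AA and 1 more free base, was found in Herpud1 alone, against 4.5% of all genes.
Herpud1, ERSE-II, chr8:94386377-94386387: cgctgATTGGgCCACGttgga
Dnajb11, ERSE-II, chr16:22857852-22857862: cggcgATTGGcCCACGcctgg
Sec24d, UPRE, chr3:123267470-123267477: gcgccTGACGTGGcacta
Sec23a, UPRE, chr12:59012004-59012011: cccttTGACGTGGcagag
A match of letters is a description, not a binding site, and a window without one says only that these letters are not in it. The shares over all genes are a description here too, and no enrichment was tested.

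Hsp90b1 was the member with 2 ERSE matches and also the one with the smallest p in the genotype comparison. Its promoter is therefore shown from 250 to 66 bases before the RefSeq start, on the minus strand at chr10:86705510-86705694, with the fixed letters of both matches in capitals. The match nearer to the start lies on the opposite strand, so it reads here as CGTGG before ATTGG.
Hsp90b1: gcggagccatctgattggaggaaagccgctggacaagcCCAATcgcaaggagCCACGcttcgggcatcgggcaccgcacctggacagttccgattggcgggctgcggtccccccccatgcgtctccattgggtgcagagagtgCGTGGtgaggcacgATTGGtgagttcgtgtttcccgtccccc

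**Figure D1:**
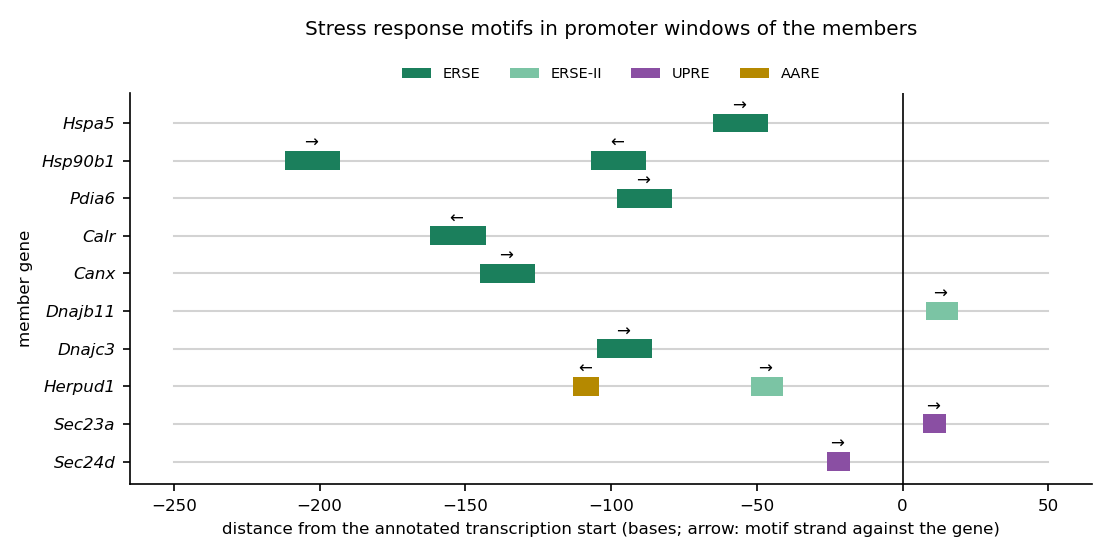
Positions of the motif matches in the promoter windows of the 10 members that have one; the x axis is the distance in bases from the RefSeq start, bars span the motif and arrows give its strand relative to the gene. The ERSE bars belong to chaperone genes only and lie between 212 and 47 bases before the start, and Hsp90b1 has 2 of them.

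Levels of different genes were compared as FPKM, fragments scaled to library size and to the summed length of a gene's exons (mean ± SD over 3 libraries). In WT cartilage the most abundant member was Plod2, the lysyl hydroxylase of the collagen telopeptides, at 333 ± 37.4 FPKM. Its relatives for helical lysines were far lower, Plod1 at 14.9 ± 1.68 FPKM and Plod3 at 9.40 ± 2.49 FPKM. FPKM are not corrected for GC content, which is 43% for Plod2, 52.7% for Plod1 and 57.8% for Plod3. Within each WT library the length-scaled Plod2 level was 17.9 to 25.3 times that of Plod1, and in Apert libraries it was 28.5 to 34.5 times. With a correction for GC content the log2 fold changes, Apert against WT, were 0.072 for Plod2 and -0.105 for Plod1, against 0.225 and -0.23 without it. The fold changes of this pair differ in sign, so the shift of the ratio between the genotypes restates them and is no separate result. P4hb, which is both the beta subunit of prolyl 4-hydroxylase and protein disulfide isomerase, stood at 120.2 ± 18.9 FPKM. Serpinh1, encoding the collagen chaperone HSP47, overlapped it at 117 ± 9.67 FPKM.

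P3h1 and Crtap encode 2 partners of the complex that 3-hydroxylates proline in collagen. They were measured at 60.8 ± 7.37 and 60.0 ± 7.32 FPKM in WT and overlapped. Their ratio, chosen for mention after its values were seen, lay between 0.897 and 1.08 in all 6 libraries. Ppib, the cyclophilin of that complex, was lower at 10.1 ± 0.921 FPKM, but 54.2% of its exon bases are shared with Snx22. Fragments over shared exons are not assigned to either gene, so its level is uncertain. Fkbp10, a prolyl isomerase of collagen, stood at 20.1 ± 4.78 FPKM. P4ha2, 1 of the catalytic prolyl 4-hydroxylase subunits, was the lowest of the step at 7.11 ± 1.29 FPKM. Of the other catalytic subunits, which are not members, P4ha1 reached 35.4 FPKM and P4ha3 reached 322 FPKM, close to Plod2.

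Among the chaperones Hsp90b1, encoding the HSP90 of the ER (GRP94), led with 253 ± 36.4 FPKM. Hspa5, encoding the HSP70 of the ER (BiP), followed at 147 ± 8.43 FPKM and overlapped the disulfide isomerase gene Pdia3 at 132 ± 12.5 FPKM. The lectin chaperone genes Calr and Canx stood at 93.1 ± 20.3 and 65.7 ± 4.37 FPKM. The most weakly expressed were Manf at 5.13 ± 0.999 FPKM and Herpud1, a membrane protein of ER-associated degradation, at 3.96 ± 0.285 FPKM. The COPII step divided into an upper pair and a lower group. The upper pair was Lman1, a lectin cargo receptor, at 48.3 ± 3.86 FPKM and Sec31a, of the outer coat, at 44.4 ± 1.04 FPKM. Sec23a, Sec24d, Sec13 and Mia3 lay between 16.7 and 20.6 FPKM, each overlapping its neighbour in the order.

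Among the unfolded protein response genes Creb3l2 stood at 129 ± 5.77 FPKM, the fifth level among all 39 members, and did not overlap Atf4 at 35.9 ± 3.79 FPKM or Xbp1 at 25.6 ± 0.952 FPKM. Atf6 was at 7.56 ± 1.01 FPKM, Eif2ak3 at 4.64 ± 0.761 FPKM and Ddit3, encoding the stress factor CHOP, at 3.84 ± 0.354 FPKM. Ern1 was the lowest of all 39 members at 2.09 ± 0.378 FPKM. Length-scaled Creb3l2 was 15.6 to 18.6 times Atf6 in WT libraries and 9.40 to 14.4 times in Apert libraries, a ratio chosen after its values were seen. In the translocon, Ssr1 and Sec61a1 overlapped at 26.8 ± 1.49 and 24.7 ± 1.32 FPKM, and Sec61b was lower at 13.2 ± 3.39 FPKM.

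**Figure D2:**
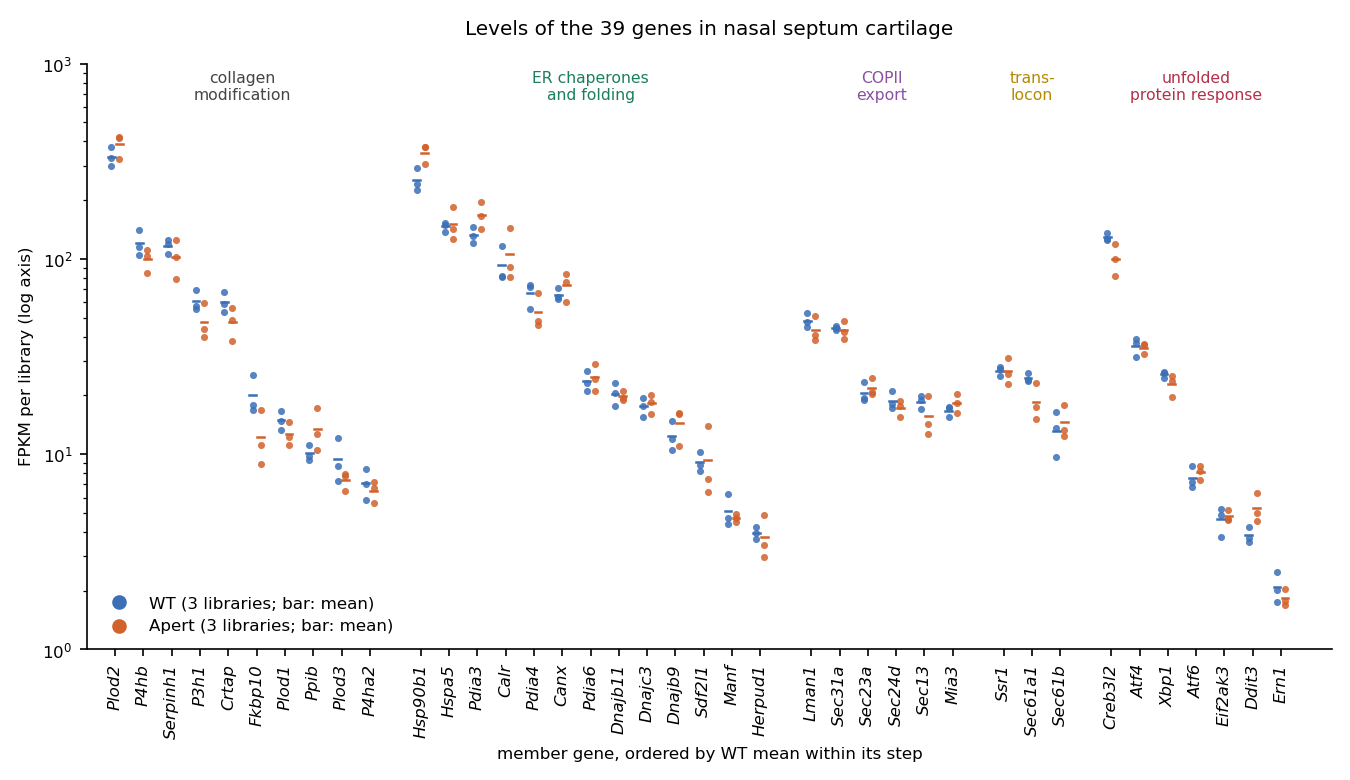
FPKM of the 39 members in each library on a log axis, by step and ordered by the WT mean; points are libraries (3 WT, 3 Apert) and bars are means. Plod2, Hsp90b1, Lman1, Ssr1 and Creb3l2 head their steps, and the points of the 2 genotypes overlap for 34 of the 39 genes.

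Library totals ran from 6760510 to 10834744 counts. Apert replicates 1 to 3 held 10527915, 7560437 and 6760510 counts, so that replicates 2 and 3 were the shallowest libraries of all. Their mitochondrial shares were 34.3%, 36.6% and 40.4% in the same order. Genes with at least 1 count numbered 18687 to 18942 in WT and 18245 to 18529 in Apert, without overlap. The mitochondrial genome gave 28.8% to 30.2% of counts in WT and 34.3% to 40.4% in Apert libraries, without overlap (two-sided exact permutation p = 0.1, the smallest that 3 against 3 libraries can give). All 10 cartilage markers were detected and none was called different. Their log2 fold changes were negative for 7 of 10, with 2 lower and 0 higher at an unadjusted p under 0.05. In CPM (counts scaled to a common TMM library size) Col2a1 stood at 19700 ± 4245 in WT and 17510 ± 1021 in Apert. The cartilage factor Sox9 went from 760 ± 109 to 479 ± 140 CPM without overlap (log2 fold change -0.67; edgeR adjusted p = 0.125), and the proteoglycan gene Acan had a log2 fold change of -0.48 (adjusted p = 0.322). Of 10 perichondrium and fibrous markers, 2 were called higher in Apert, Col3a1 and Ogn (edgeR adjusted p = 0.0322 and 0.0363). Log2 fold changes were positive for 8 of these 10 markers, with a median of 0.56. At an unadjusted p under 0.05, 7 were higher and 0 lower. Neither call held with library totals as the only scaling (adjusted p = 0.102 and 0.0738) or with a correction for GC content (0.0568 and 0.258). Nor did they hold without any 1 library other than Apert replicate 1 (0.065 to 0.263). Both held in the other settings. Among these was the GC content correction with the replicate number as a block (edgeR adjusted p = 0.00643 and 0.0428). The summed level of these 10 markers was 2301 to 2642 CPM in WT and 3219 to 3461 CPM in Apert. The glial list was lower in Apert, at 182 to 208 against 239 to 302 CPM, with 5 of 6 markers tested, none called and Foxd3 at 0. Of 6 markers each, 1 osteoblast, 2 neuron, 1 endothelial, 2 macrophage, 0 epithelial, 1 muscle and 5 erythroid genes passed the filter on low counts. Cdh1, Krt14, Myod1, Myog and Ibsp had 0 counts in every library. The part of library depth, of the mitochondrial share and of these marker lists in the results on the members was not tested.

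Between the genotypes, none of the 39 members passed the test (edgeR quasi-likelihood, Benjamini-Hochberg adjusted over all 13333 genes tested). The smallest adjusted p was 0.169. Over all genes 60 were called, which is 0.450%. DESeq2 and limma-voom also called 0 members. At an unadjusted p under 0.05 edgeR, DESeq2 and limma-voom each counted 6. In edgeR 2 of these were higher in Apert, Hsp90b1 and Pdia3, where 6.35% of all genes were. The other 4 were lower, Fkbp10, Creb3l2, Sec61a1 and P3h1, where 5.01% of all genes were. The 3 Apert libraries all lay above the 3 WT libraries for 2 members, against 8.92% of all genes, and all below for 3 members, against 7.70%. The counts without overlap are close to what these shares give of 39 genes.

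Log2 fold changes of the members, Apert against WT, ran from -0.70 to 0.47 with a median of -0.04, beside 0.01 for all genes. Negative values outnumbered positive ones, 22 to 17. By step the median was -0.25 for collagen modification, 0.05 for the chaperones, -0.08 for COPII export, 0.00 for the translocon and -0.03 for the unfolded protein response. The chaperone median became -0.10 with library totals as the only scaling, a setting that also moved the median of all genes to -0.15. Summed over the step, the chaperones gave 2708 to 3204 CPM in WT and 3135 to 3920 CPM in Apert, overlapping ranges. The unfolded protein response genes gave 1162 to 1273 CPM in WT and 853 to 1136 CPM in Apert, without overlap, and most of that sum is Creb3l2.

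**Figure D3:**
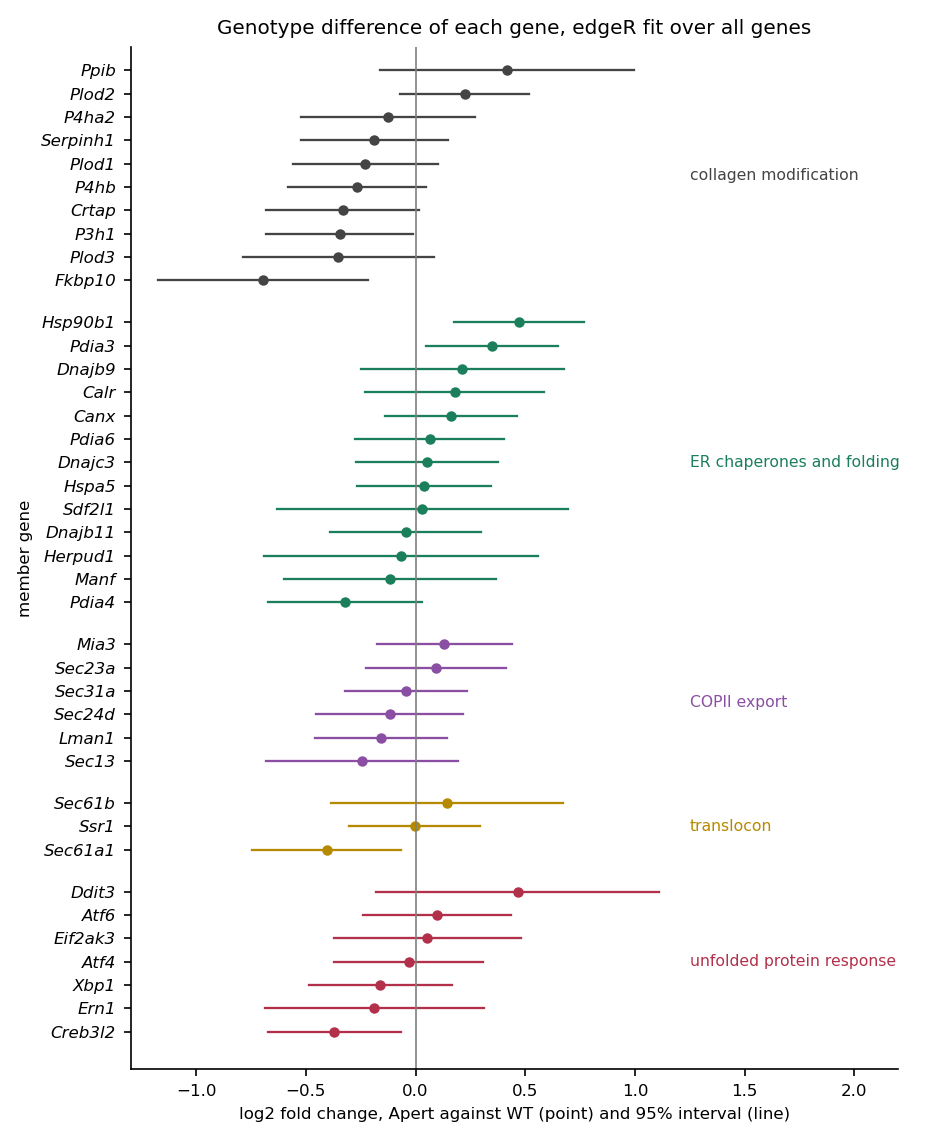
Log2 fold change of each member, Apert against WT (point), with its 95% interval computed from the edgeR test (line), by step. The intervals of 6 members exclude 0 before adjustment (Fkbp10, P3h1, Hsp90b1, Pdia3, Sec61a1 and Creb3l2), and 8 of the 10 collagen modification genes lie left of 0.

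Of the 10 collagen modification genes, 8 had a negative fold change, 2 of them with an unadjusted p under 0.05, and none was called. Fkbp10 was at 49.4, 74.99 and 52.3 CPM in WT replicates 1 to 3 and at 49.4, 26.1 and 32.9 CPM in Apert replicates 1 to 3. The gene lies at chr11:100415697-100424824 on the plus strand (mm10, as all gene positions here). The highest Apert library lay just under the lowest WT library, and the other two Apert libraries were well below. Its log2 fold change was -0.70, the most negative of the members (95% interval -1.18 to -0.22; edgeR adjusted p = 0.228). Without Apert replicate 1 the log2 fold change was -1.03 and Fkbp10 was called (edgeR adjusted p = 0.0205). It was also called when no filter on low counts was used (edgeR adjusted p = 0.0246). These were the 2 calls of Fkbp10 in 17 other settings. Over all genes, 119 were called higher and 110 lower of 13848 without Apert replicate 1. Without the filter 154 were called higher and 93 lower of 23141.

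The prolyl 3-hydroxylation partners, P3h1 (chr4:119232915-119248975) and Crtap (chr9:114375134-114390675), gave similar patterns over the libraries. P3h1 stood at 222, 266 and 213 CPM in WT and at 229, 153 and 169 CPM in Apert replicates 1 to 3. Apert replicate 1 lay within the WT range and the other two lay below it. That gives a log2 fold change of -0.35 (95% interval -0.68 to -0.01; edgeR adjusted p = 0.426). Crtap stood at 94.98, 121 and 104 CPM in WT and at 99.1, 67.4 and 86.5 CPM in Apert. Here too Apert replicate 1 was within the WT range and the other two were below it, with a log2 fold change of -0.33 (95% interval -0.68 to 0.02; edgeR adjusted p = 0.475). Ppib, the third partner, went the other way, at 9.01, 9.45 and 10.7 CPM in WT and 16.6, 12.1 and 10.1 CPM in Apert. The groups overlapped and its interval was wide, -0.162 to 0.997, with only 62 counts in the shallowest library.

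P4hb gave 328, 404 and 299 CPM in WT and 318, 241 and 297 CPM in Apert, overlapping, with a log2 fold change of -0.27 (95% interval -0.58 to 0.05; edgeR adjusted p = 0.525). Plod2 gave 1557, 1247 and 1369 CPM in WT and 1746, 1365 and 1763 CPM in Apert. The groups overlapped through Apert replicate 2, and the log2 fold change was 0.23 (95% interval -0.07 to 0.52). Plod3 was at 33.02, 54.9 and 39.5 CPM in WT and at 35.7, 29.1 and 35.0 CPM in Apert, where WT replicate 2 stood apart at the top. Its log2 fold change was -0.35 (95% interval -0.79 to 0.08), and 11.9% of its exon bases are shared with Znhit1 and Mir702. Serpinh1, Plod1 and P4ha2 had log2 fold changes of -0.19, -0.23 and -0.13 and overlapped between the groups. Because Plod2 carries much of the step's counts, the sum over the 10 genes was 2615 ± 116 CPM in WT and 2637 ± 390 CPM in Apert, while the median fold change was negative.

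Of the 13 ER chaperone and folding genes, 9 had a positive fold change, 2 of them with an unadjusted p under 0.05, and none was called. Hsp90b1, at chr10:86690209-86705509, had the smallest p of all members. It stood at 1185, 973 and 904 CPM in WT and at 1509, 1231 and 1503 CPM in Apert replicates 1 to 3, and the lowest Apert library was above the highest WT library. The log2 fold change was 0.47, or 1.39-fold (95% interval 0.18 to 0.77; edgeR adjusted p = 0.169). Exons of 3 other genes, 1810014B01Rik, Gm15344 and Gm25745, cover 15.7% of its exon bases. Pdia3 (chr2:121413775-121438687), encoding the disulfide isomerase that works with calnexin and calreticulin, stood at 455, 413 and 377 CPM in WT. In Apert it stood at 615, 449 and 521 CPM, so that only Apert replicate 2 lay under the highest WT library. This is a log2 fold change of 0.35 (95% interval 0.05 to 0.65; edgeR adjusted p = 0.362).

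Hspa5, the chaperone most often read as a marker of ER stress, gave 539, 526 and 482 CPM in WT and 644, 500 and 444 CPM in Apert. The Apert libraries spread on both sides of the WT range. The log2 fold change was 0.04, with a 95% interval from -0.27 to 0.35. The disulfide isomerase gene Pdia4 was lower in Apert, at 166, 114 and 119 CPM against 178, 183 and 138 CPM, with only Apert replicate 1 inside the WT range. The fold change on the log2 scale was -0.32 (95% interval -0.67 to 0.03; edgeR adjusted p = 0.494). The length-scaled Hsp90b1 level was 3.28 to 4.09 times that of Pdia4 in WT libraries and 5.59 to 7.76 times in Apert libraries, a pair chosen after its values were seen.

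The other chaperone genes had log2 fold changes between -0.12 and 0.21 and overlapped between the groups. They were Calr (0.18), Canx (0.16), Pdia6 (0.06), Dnajb9 (0.21), Dnajb11 (-0.05), Dnajc3 (0.05), Herpud1 (-0.07), Sdf2l1 (0.03) and Manf (-0.12). Herpud1 was at 9.88, 9.25 and 8.55 CPM in WT and 8.03, 11.4 and 6.97 CPM in Apert. Sdf2l1, a partner of BiP that responds strongly to ER stress, was at 9.10, 11.4 and 9.74 CPM in WT and 8.23, 15.5 and 7.13 CPM in Apert. Manf, a secreted stress-induced factor, was at 16.6, 22.1 and 15.5 CPM in WT and 17.5, 16.6 and 15.9 CPM in Apert. These 3 genes had low counts, with 43, 44 and 98 counts in Apert replicate 3, and their intervals were wide, from -0.69 to 0.56 for Herpud1 and from -0.63 to 0.69 for Sdf2l1.

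Set against the promoter matches shown above, the 6 genes with an ERSE had log2 fold changes of 0.47 (Hsp90b1), 0.18 (Calr), 0.16 (Canx), 0.06 (Pdia6), 0.05 (Dnajc3) and 0.04 (Hspa5). All 6 values were positive, but 5 of the intervals included 0, and none of the 6 was called. With a correction for GC content 3 of these became negative (Canx, Dnajc3 and Hspa5), and with library totals as the only scaling Hspa5, Pdia6 and Dnajc3 did. The genes with an ERSE-II, Herpud1 and Dnajb11, had values of -0.07 and -0.05. Those with a UPRE had 0.09 (Sec23a) and -0.12 (Sec24d).

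None of the 6 COPII export genes had an unadjusted p under 0.05, and the smallest adjusted p of the step was 0.71. Lman1 gave 289, 304 and 337 CPM in WT and 327, 261 and 245 CPM in Apert, overlapping, with a log2 fold change of -0.16 (95% interval -0.46 to 0.14). Sec31a was the steadiest, at 358, 351 and 342 CPM in WT and 333, 381 and 306 CPM in Apert. Its log2 fold change of -0.04 had an interval of -0.32 to 0.24. Sec23a, the CREB3L2 target, and Mia3, the collagen loader, had positive values of 0.09 (95% interval -0.23 to 0.41) and 0.13 (95% interval -0.18 to 0.44). Sec24d and Sec13 had negative values of -0.12 and -0.25.

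In the translocon, Sec61a1 (chr6:88503601-88518905), the pore-forming subunit, stood at 154, 168 and 152 CPM in WT and at 149, 111 and 97.2 CPM in Apert replicates 1 to 3. All Apert libraries lay below the WT libraries, the first of them only just. The log2 fold change was -0.41 (95% interval -0.74 to -0.07, edgeR adjusted p = 0.34). Without Apert replicate 1 it was -0.63 and called (edgeR adjusted p = 0.043), the 1 call of Sec61a1 in 17 other settings. Over all genes that fit called 119 higher and 110 lower of 13848. Sec61b, a small subunit of the same channel, was at 20.8, 17.3 and 12.2 CPM in WT and 22.7, 17.0 and 15.7 CPM in Apert, a log2 fold change of 0.14 (95% interval -0.39 to 0.67). Ssr1, of the translocon-associated complex, was at 234, 255 and 259 CPM in WT and 290.4, 241 and 214 CPM in Apert, a log2 fold change of 0.00. The subunits of the channel had fold changes of opposite sign, with overlapping intervals.

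Of the 7 unfolded protein response genes, 3 had positive and 4 negative fold changes, and none was called. Creb3l2, at chr6:37327255-37442146, stood at 922, 990 and 913 CPM in WT and at 865, 727 and 594 CPM in Apert replicates 1 to 3. The 3 WT libraries lay close together and every Apert library was below them. The log2 fold change was -0.37 (95% interval -0.67 to -0.07; edgeR adjusted p = 0.329). Ddit3 went the other way, at 6.41, 6.07 and 7.25 CPM in WT and 10.8, 7.76 and 8.59 CPM in Apert. The groups did not overlap, but the counts were as few as 53 per library and the interval of the log2 fold change of 0.47 ran from -0.18 to 1.11 (edgeR adjusted p = 0.605).

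For the sensors and the other factors no difference was resolved. Atf4 was at 64.2, 67.0 and 54.6 CPM in WT and 62.9, 56.3 and 62.6 CPM in Apert, with a log2 fold change of -0.03 (95% interval -0.37 to 0.31). Xbp1 had a log2 fold change of -0.16 (95% interval -0.49 to 0.16) and Atf6 of 0.10 (95% interval -0.24 to 0.44). The sensor genes with the lowest levels were less precisely measured, Ern1 at -0.19 (95% interval -0.69 to 0.31) and Eif2ak3 at 0.05 (95% interval -0.37 to 0.48). The libraries of all 5 genes overlapped between the groups. The counts are summed over each gene and hold neither the splicing of Xbp1 nor the cleavage of ATF6 or CREB3L2, the steps by which these factors are activated.

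**Figure D4:**
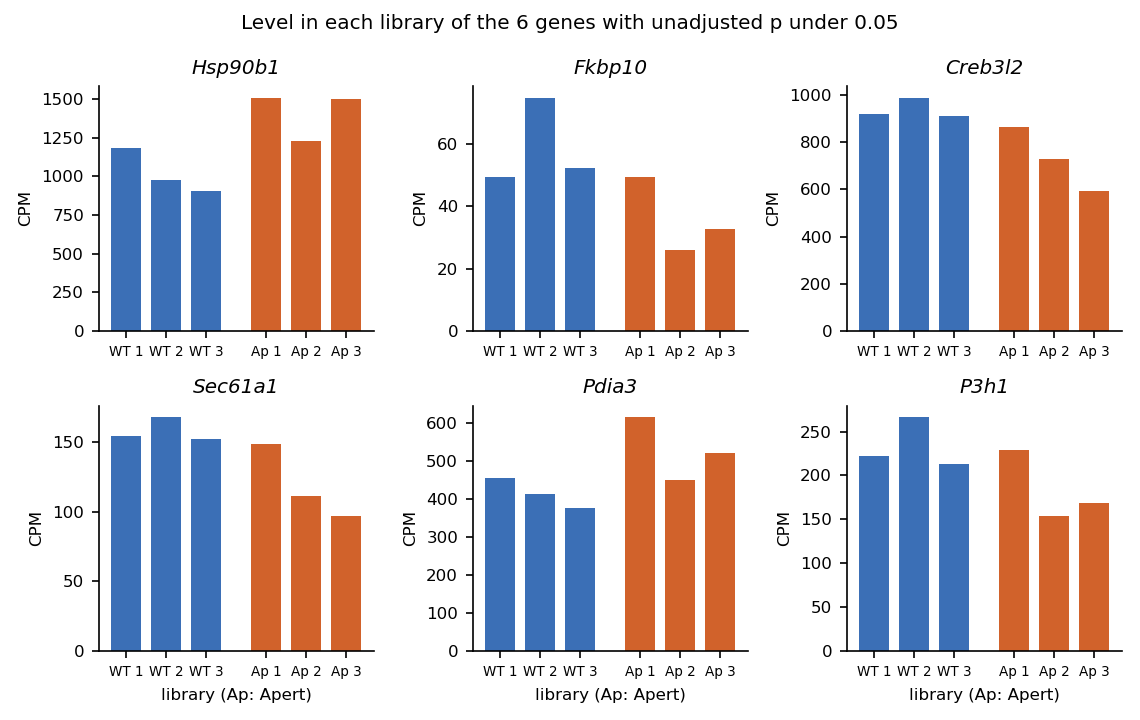
CPM in each library (bars, 3 WT in blue and 3 Apert in orange, axes from 0) of the 6 members with an unadjusted p under 0.05. Hsp90b1, Fkbp10, Creb3l2 and Sec61a1 do not overlap between the genotypes, Fkbp10 only by a near tie of Apert replicate 1 with WT replicate 1. Apert replicate 1 is the highest Apert library for every gene shown.

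Fold changes of the members followed the GC content of their transcripts. GC content of the longest transcript ran from 40.6% to 57.8% over the members, and Pearson's r with the log2 fold change was -0.61 across the 39 genes (Spearman's rho -0.63). Genes that share libraries and depth are not independent, so this is a description. Across 13192 genes with a GC value r was -0.37. Hsp90b1, with the largest positive fold change, has a GC content of 42.1%, and Fkbp10, with the most negative, of 57.4%. Plod3 (57.8%), Crtap (57.0%) and P3h1 (56.4%) also had negative values. Other members lay off this trend, with positive values for Ppib and Calr at 50%, Sec61b at 56.3% and Sdf2l1 at 56.7%.

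With a smooth correction for GC content in each library, r over the members was -0.04. The correction takes out each library's fitted curve on GC content, so this loss of r is built into it. The collagen modification median moved from -0.25 to -0.07, P3h1 from -0.35 to -0.10 and Crtap from -0.33 to -0.08. Fkbp10 was then at -0.42 (edgeR adjusted p = 0.72) and Hsp90b1 at 0.29 (edgeR adjusted p = 0.721). Creb3l2, of intermediate GC content at 49.7%, stayed near its value, at -0.33, and was the only member with an unadjusted p under 0.05 (edgeR adjusted p = 0.642). Pdia3 and Pdia4 also moved little, to 0.30 and -0.35. Whether the relation to GC content comes from the amplified libraries or from the cells was not tested.

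**Figure D5:**
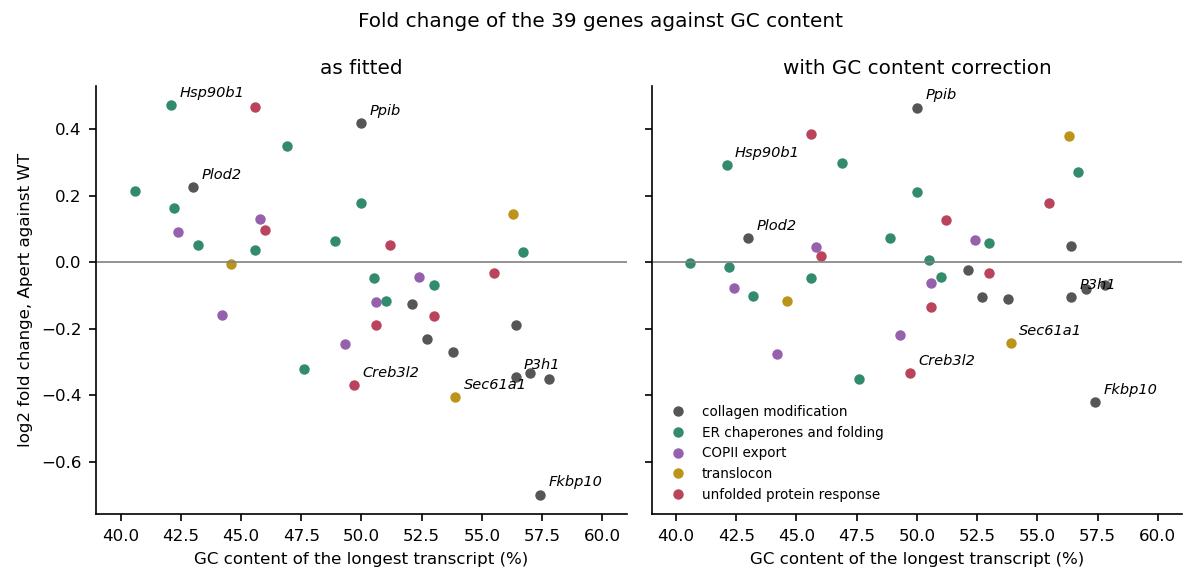
Log2 fold change of the 39 members against the GC content (%) of the longest transcript, as fitted (left) and with the GC content correction (right), coloured by step. The slope on the left (r of -0.61) is removed on the right (r of -0.04), as the correction is built to do. Fkbp10, Pdia4 and Creb3l2 are the lowest on the right.

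Other genes of the same pathways, from lists that include no member, gave few calls as well. Of 11 other collagen modification genes none was called, and their median log2 fold change was -0.01. P3h2, another prolyl 3-hydroxylase, and P3h4, a partner of lysyl hydroxylase 1, differed in sign at 0.96 and -0.59 (edgeR adjusted p = 0.22 and 0.221). None of 11 procollagen processing and crosslinking genes was called (median 0.02), with the procollagen C-proteinase gene Bmp1 at -0.57 and the lysyl oxidase gene Lox at 0.45. None of 16 other ER folding genes was called (median 0.01), with Sdf2 at -0.87 and Hspa13 at 0.45. Of the other COPII and carrier genes 20 of 21 could be tested and none was called (median -0.05). Sec16a, the scaffold of ER exit sites, went from 240 ± 5.15 CPM (WT) to 188 ± 11.6 CPM (Apert), a log2 fold change of -0.35 (edgeR adjusted p = 0.302).

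Of the other translocon and glycosylation genes 25 of 26 were tested and none was called (median -0.02). Srpr, the signal recognition particle receptor, was at -0.38. For ER-associated degradation 13 of 14 genes were tested, none was called, and the median was -0.23. Syvn1, the ubiquitin ligase HRD1, went from 47.6 ± 12.5 to 29.4 ± 1.74 CPM (log2 fold change -0.70; edgeR adjusted p = 0.169). Os9, a lectin that hands it substrates, went from 22.5 ± 3.36 to 13.1 ± 2.47 CPM (log2 fold change -0.77; edgeR adjusted p = 0.192). Both have a GC content of 56.6%. Erlec1, another substrate lectin, went the other way, from 59.7 ± 6.84 to 76.5 ± 9.84 CPM (log2 fold change 0.36; edgeR adjusted p = 0.431), with a GC content of 40.4%.

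Of 18 further stress response genes 13 were tested and none was called (median -0.14). Ppp1r15a, the phosphatase subunit GADD34 that reverses PERK signalling, averaged 5.38 ± 1.67 CPM (WT) and 2.01 ± 0.603 CPM (Apert). Its log2 fold change was -1.44 (edgeR adjusted p = 0.228), the opposite sign to Ddit3, which acts upstream of it. Eif2s1, encoding the translation factor subunit that PERK phosphorylates, went from 108 ± 5.58 to 144 ± 22.4 CPM without overlap (log2 fold change 0.41; edgeR adjusted p = 0.292). Psat1, a serine synthesis gene and ATF4 target, had a log2 fold change of 0.33 (edgeR adjusted p = 0.462). Trib3, Chac1 and Atf3, targets of ATF4 and CHOP in strong ER stress, were near 0 in both genotypes, at no more than 3 counts in any library. Among 10 collagen genes, the cargo of these steps, 1 was called: Col3a1, a fibrous tissue collagen, rose from 279 ± 35.2 to 452 ± 15.8 CPM (log2 fold change 0.69; edgeR adjusted p = 0.0322). That call was lost with the GC content correction (adjusted p = 0.0568) and with library totals as the only scaling (adjusted p = 0.102). It was also lost without any 1 library other than Apert replicate 1 (adjusted p = 0.0899 to 0.199). The call of Col3a1 held in the other settings. Col1a1 went from 140 ± 67.0 to 250 ± 61.1 CPM with overlap and was not called (log2 fold change 0.84, edgeR adjusted p = 0.165). At an unadjusted p under 0.05, 2 of the 10 cargo genes were higher and 1 lower. Their log2 fold changes were positive for 5 and negative for 5. Col2a1, at 3282 FPKM in WT the chief cargo, had a log2 fold change of -0.17 (edgeR adjusted p = 0.706).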

How the data were processed

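RNA-seq counts of 6 laser-captured samples were analysed. Per the labels' protocols, each library was amplified from 15 ng of RNA (NuGEN Ovation, then Nextera XT), which can distort transcripts by GC content. The deposited values are whole-number fragment counts per gene, made by the authors with featureCounts 1.4.4 without strand on Ensembl 75 gene models, per the file headers. Cutadapt, the aligner STAR 2.5.2b and the build mm10 are listed in the submitters' processing notes. Genes overlapping on either strand cannot be separated.

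Counts were tested in R 4.3.3 with edgeR 4.0.16 (filterByExpr, TMM, glmQLFit, glmQLFTest, Benjamini-Hochberg over 13333 genes, called under 0.05). Intervals are 95% confidence intervals of the difference between the groups, based on the spread between animals as the model estimates it. Their standard error was the size of the log2 fold change over the root of F. The t distribution with 17.8 degrees of freedom gave their width for the members. FPKM were computed here from TMM-scaled totals and the exon lengths in the files. GC content was that of the longest GENCODE M21 transcript. DESeq2 1.42.0, limma 3.58.1 (voom) and mgcv 1.9.3 (GC curve as an offset) gave alternatives. Scripts were tested on simulated data. Symbols were matched for 37607 of 38924 genes, and genes without one held 0.168% to 0.205% of counts per library. Promoter windows are RefSeq's (GRCm38.p6).

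Members and lists were chosen with earlier results of these data known, so no list was tested. Values per library are given for the 2 most abundant members of each step, the 10 with the smallest p and those under 100 counts in any library. Of each further list, genes among the 3 with the smallest p are named, besides P4ha1, Col2a1, Sox9, Acan, Trib3, Chac1 and Atf3, chosen after their values were seen. The settings for Col3a1 and Ogn were those of the other results. All ratios between members were picked from a longer set of pairs, and how often ratios of other gene pairs separate the genotypes was not counted.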

Additional observations from a re-analysis of the deposited data

How the results depend on the processing

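Over 17 other settings 19 members kept the sign of their log2 fold change and 20 changed it at least once. Fkbp10 and Sec61a1 were the only members called in any of them, 1 member with no filter on low counts and 0 to 2 with 1 library left out, the 2 being without Apert replicate 1. The 60 genes called overall became 247 with no filter, 223 in DESeq2, 129 at a threshold of 0.10, 5 with the GC content correction and 0 to 229 with 1 library left out (229 without Apert replicate 1, 0 without WT replicate 3). The replicate number was tried as a block: 172 genes and 0 members were called, and Sdf2l1 became -0.033. Deviations of equally numbered libraries correlated at 0.19, 0.02 and 0.09. WT replicates 1 and 3 each correlated best with the Apert library of the same number, and WT replicate 2 with Apert replicate 3 (0.042). These values do not settle whether equal numbers mark pairs. The labels do not say that they share a litter, so the numbers were not taken as pairs. In the ER-associated degradation list 1 gene was called with no filter and 1 in DESeq2. Collagen cargo calls, 1 as reported, were 0 with library totals alone, 0 with the GC correction, 2 with no filter, 2 with the replicate block, 2 with block and GC correction together, and 0 to 2 with 1 library left out.

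Scaling by library totals alone shifted the median of all genes from 0.01 to -0.15, the members to -0.20, the chaperones to -0.10, COPII export to -0.24 and the unfolded protein response to -0.19, and calls to 17 higher and 24 lower from 53 and 7. Under it Hspa5 was -0.114, Pdia6 -0.091, Dnajc3 -0.099, Sdf2l1 -0.113, Sec23a -0.064, Mia3 -0.027, Sec61b -0.008, Atf6 -0.057 and Eif2ak3 -0.102. With the GC correction, and in brackets with the replicate block as well, values changed sign to 0.05 (0.021) for Serpinh1, -0.048 (-0.068) for Hspa5, -0.013 (-0.024) for Canx, -0.003 (-0.008) for Dnajb9, 0.008 (0.013) for Dnajb11, -0.102 (-0.098) for Dnajc3, 0.059 (0.036) for Herpud1, 0.066 (0.06) for Sec31a, -0.077 (-0.078) for Sec23a and 0.177 (0.175) for Atf4. In limma-voom Sdf2l1 was -0.046. With 1 library left out, ranges that crossed 0 were -0.248 to 0.016 for P4ha2, -0.159 to 0.143 for Hspa5, -0.101 to 0.164 for Pdia6, -0.122 to 0.37 for Calr, -0.142 to 0.053 for Dnajb11, -0.03 to 0.129 for Dnajc3, -0.302 to 0.057 for Herpud1, -0.393 to 0.212 for Sdf2l1, -0.214 to 0.051 for Manf, -0.14 to 0.016 for Sec31a, -0.007 to 0.194 for Sec23a, -0.069 to 0.331 for Sec61b, -0.164 to 0.084 for Ssr1, -0.114 to 0.027 for Atf4 and -0.07 to 0.151 for Eif2ak3. Leaving mitochondrial genes out of the totals raised the WT level of Plod2 to 502 FPKM. Where a value changed with the setting, the cause was not tested. Intervals spanned more than 1 log2 unit for Herpud1, Sdf2l1, Ppib, Ddit3, Sec61b and Ern1, of which all but Ern1 had under 100 counts in at least 1 library.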

Other observations

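Fkbp10 and P3h4, both linked to lysine hydroxylation of collagen, are neighbours that are read in opposite directions from a shared upstream stretch. In the count files P3h4 lies on the minus strand at chr11:100408456-100414836 and Fkbp10 on the plus strand from 100415697 to 100424824 (mm10). P3h4 stood at 31.7, 41.0 and 35.5 CPM in WT and at 25.2, 23.8 and 22.7 CPM in Apert replicates 1 to 3, without overlap. Fkbp10 did not overlap either, but only by a near tie of Apert replicate 1 (49.38 CPM) with WT replicate 1 (49.4 CPM). Log2 fold changes were -0.59 for P3h4 (edgeR adjusted p = 0.221) and -0.70 for Fkbp10 (adjusted p = 0.228), and neither was called. P3h4 has a GC content of 58.6%, above the members' range of 40.6% to 57.8%, and Fkbp10 of 57.4%, near its upper end. The pair was noticed after its values were seen, and no relation between the genes was tested.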
